A study of Mus musculus with 2 samples.

Results

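Lipoprotein lipase and 8 genes that act beside it in the capture, binding and storage of lipid were followed through single-cell RNA libraries of mouse perivascular fat. The 9 genes, Lpl, Angptl4, Angptl2, Gpihbp1, Fabp4, Fabp5, Cd36, Plin2 and Apoe, were taken by symbol from 31053 genes in the feature table of both libraries. The rule itself used no measured value, but the 9 genes were chosen with earlier results of these data known. The series holds a library for each age, 1 labelled young and 1 labelled old, both of genotype WT (wild type, with no transgene or drug named) and made from primary stromal cells of fat dissected off the aorta and freed with collagenase. The study's title ties such cells with a history of SM22α to abdominal aortic aneurysm. The ages in months, the number and sex of the mice and the stretch of aorta were not given in any source used here. With 1 library per age no difference between ages has a replicate check, so no test across animals was possible and no p-value is given. All 95% intervals below cover counting error only.

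Lipoprotein lipase is secreted by adipocytes and muscle and splits the triglyceride of chylomicrons and very low density lipoproteins on the capillary wall. Gpihbp1, a protein of capillary endothelium, carries the enzyme across to the vessel lumen and holds it there. Angptl4 inactivates the enzyme, whereas Angptl2, of the same protein family, is known as a secreted factor in inflammation of fat and not as a classic lipase inhibitor. The fatty acids released are taken up with the help of Cd36, bound in the cytosol by Fabp4 and Fabp5, and stored in droplets coated by Plin2. Apoe coats lipoproteins and is the ligand through which receptors clear them.

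After filtering, 11453 young and 12207 old cells remained, with medians of 8916 and 9230 unique molecular identifiers (UMIs, 1 per captured transcript) per cell. The 2 libraries had 275 barcode sequences in common among 13104 and 14636 deposited. Cells were gated by UMIs of marker genes, none of which is among the 9 genes. The mesenchymal gate (markers such as Col1a1, Pdgfra and Dcn) held 9532 young and 9061 old cells, 83.2% and 74.2% of the libraries. The other gates held 29 young and 977 old blood endothelial cells, 5 and 85 adipocytes, 66 and 77 Schwann cells, 1 and 87 macrophages, and 356 and 71 mesothelial cells. A further 1460 young and 1662 old cells passed no gate, and 4 and 187 passed gates of different types and were left out. All 10 endothelial markers were found in the endothelial gate. In the old library Lep was at 0 in the adipocyte gate, Cx3cr1 in the macrophage gate and Prx in the Schwann gate. Levels below are CPM, the summed UMIs of a gene per 1000000 UMIs of all cells in a gate. Mesenchymal markers summed to 6921 CPM young and 5763 CPM old in the mesenchymal gate, and were also carried by the mesothelial gate (4540 and 3951 CPM) and the Schwann gate (2660 and 2763 CPM). Since the chemistry counts 3' ends, levels of different genes are compared only as counts of molecules. The young endothelial, adipocyte and macrophage gates, with under 50 cells, are given as values only.

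The genes lie apart in the genome except for a pair. On GRCm38, by GENCODE vM21, Lpl spans chr8:68880491-68907448 on the plus strand, and Fabp5 (chr3:10012548-10016607, plus) and Fabp4 (chr3:10204088-10208576, minus) are neighbours on chromosome 3. Angptl4 spans chr17:33773750-33781830 (minus), Gpihbp1 chr15:75596628-75599481 (plus), Cd36 chr5:17781690-17888801 (minus) and Plin2 chr4:86648386-86670060 (minus). Angptl2 spans chr2:33216069-33247717 (plus) and Apoe chr7:19696109-19699188 (minus). All are protein coding. Promoter windows of RefSeq on GRCm38.p6, the 250 bases before the gene's RefSeq start, were available for 4 of the 9 genes. Those of Angptl2 and Apoe are shown because both genes stood higher in the old mesenchymal and mesothelial cells. The Angptl2 window is chr2:33215711-33215960 on the plus strand and the Apoe window chr7:19699189-19699438 on the minus strand. The Apoe window adjoins the GENCODE span given above, whereas the Angptl2 window ends short of the GENCODE start at 33216069. Capitals mark matches to the GC box on the reverse strand, where its letters read CCGCCC.
Angptl2: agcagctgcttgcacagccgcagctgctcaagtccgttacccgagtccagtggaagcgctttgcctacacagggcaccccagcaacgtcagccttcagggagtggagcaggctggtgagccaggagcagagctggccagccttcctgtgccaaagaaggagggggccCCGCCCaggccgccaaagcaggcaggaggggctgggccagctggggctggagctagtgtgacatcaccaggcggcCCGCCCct
Apoe: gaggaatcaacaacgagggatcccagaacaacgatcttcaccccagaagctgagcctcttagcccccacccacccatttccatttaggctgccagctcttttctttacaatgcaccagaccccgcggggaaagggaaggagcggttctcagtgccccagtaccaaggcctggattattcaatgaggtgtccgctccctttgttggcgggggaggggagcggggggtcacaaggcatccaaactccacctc
The windows were searched on both strands for 4 motifs, and no match overlapped another. These were GGGCGG, known as the GC box, the TATA box TATAAA, the nuclear receptor half-site AGGTCA, and ACGTG, the core of the hypoxia response element. Angptl2 had 2 GC box matches and a GC content of 66.8%. Apoe had 0 matches to any of the 4 motifs and a GC content of 57.2%. Among 32851 windows of the same length, 32.7% held the GC box, 12.4% the TATA box, 14.0% the half-site and 16.6% the hypoxia core. A match is a description of the letters and not a binding site.

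The first comparison asked in which cells the genes were found. The lipase transcript was carried by mesenchymal cells and, at far higher level, by adipocytes, while nearly all UMIs of its endothelial partner Gpihbp1 lay in endothelial cells, at the highest level in a few with capillary markers. Macrophages stood out for Fabp5 and Cd36, and Schwann cells for Angptl2. The plot of levels by gate shows these patterns for both libraries.

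**Figure D1:**
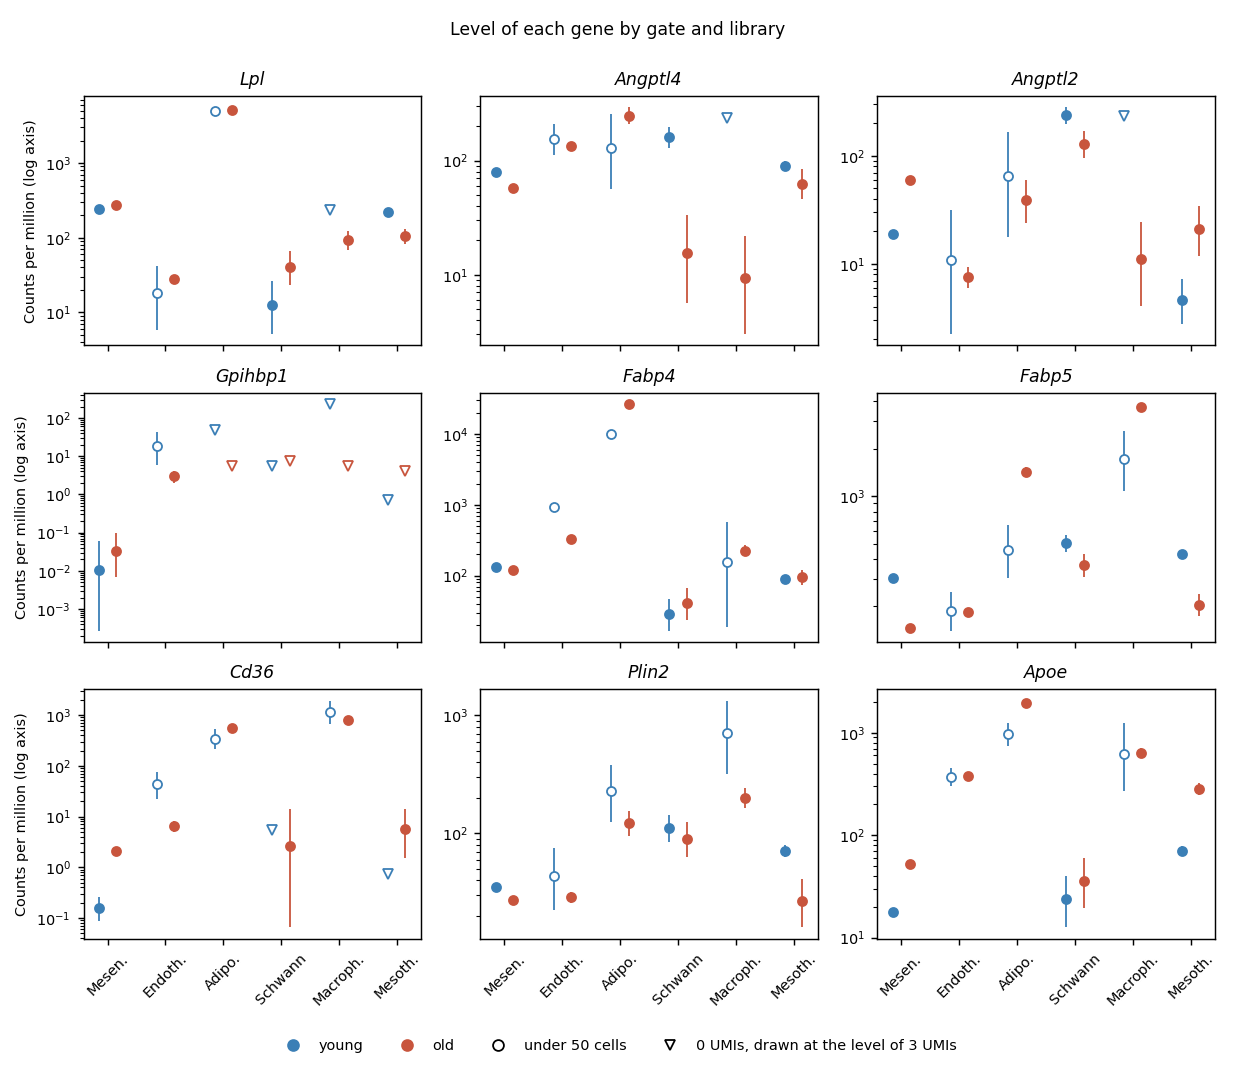
Level of each of the 9 genes by gate (x axis) and library, in CPM on a log axis. Points are sums over all cells of a gate with exact Poisson 95% intervals, open points are gates with under 50 cells, and triangles are gates with 0 UMIs drawn at the level that 3 UMIs would have. Lpl, Fabp4 and Apoe reach their highest old-library level in the adipocyte gate (5165, 26241 and 1940 CPM), and Fabp5 and Cd36 in the macrophage gate (3689 and 804 CPM).

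Lpl stood at 244 CPM in young and 272 CPM in old mesenchymal cells. In the 85 old adipocytes its level was 5165 CPM (4975 to 5361), 19.0-fold that of the old mesenchymal cells, and in the 5 young adipocytes it was 5007 CPM. Old endothelial cells (27.8 CPM, 24.7 to 31.0) and old Schwann cells (41.1 CPM, 23.5 to 66.7) lay lowest, and their intervals overlap. Old macrophages (92.8 CPM, 68.9 to 122) and old mesothelial cells (105 CPM, 82.3 to 131) came next and could not be ordered against each other either. Thus the order of the old gates was adipocyte, mesenchymal, then mesothelial and macrophage, then Schwann and endothelial. Shares of cells were compared after thinning every cell to 2000 UMIs. Lpl was then found in 30.7% of young (29.8 to 31.7) and 36.6% of old (35.6 to 37.6) mesenchymal cells. In old endothelial cells, which hold the enzyme but are not known to make it, the share was 6.10% (4.67 to 7.79). In Schwann cells the shares were 3.03% (0.369 to 10.5) young and 7.89% (2.95 to 16.4) old. Median depth before thinning was 8947.5 and 9161 UMIs in mesenchymal, 7640.5 and 4902 in Schwann and 10696 in old endothelial cells. Without thinning the mesenchymal shares were 59.6% and 74.6%.

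Gpihbp1 gave 5 UMIs in young and 33 in old endothelial cells, which is 18.0 CPM (5.86 to 42.1) and 2.97 CPM (2.05 to 4.18). The mesenchymal gate held 1 young and 3 old UMIs, and the old endothelial level was higher by 6.51 on the log2 scale (4.84 to 8.86). The adipocyte, Schwann, macrophage and mesothelial gates held 0 in both libraries. Within the old endothelial gate, 4 cells that passed the capillary class only carried 11 of the 33 UMIs (471 CPM, 235 to 844). The 736 cells that passed the vein class only carried 7 (0.819 CPM, 0.329 to 1.69). The 160 cells below the marker limits of all classes carried 10 (6.70 CPM, 3.21 to 12.3). The vein class asked for only 3 UMIs from 2 markers, and its list was not specific: 1 marker gave 1033 of its 1471.5 CPM in old endothelial cells, and the list summed to 1849 CPM in old adipocytes and 278 CPM in old mesenchymal cells. Only 3 of the 977 old endothelial cells had 5 or more Gpihbp1 UMIs, and these held 54.5% of its UMIs.

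Angptl4, the lipase inhibitor, was highest in old adipocytes at 248 CPM (208 to 294), 4.33-fold the old mesenchymal level of 57.3 CPM. Old endothelial cells had 133 CPM (126 to 140), 2.32-fold the mesenchymal level, and held 9.52% cells with 5 or more UMIs against 1.02% of mesenchymal cells. After thinning it was found in 14.9% of young and 11.7% of old mesenchymal cells, against 3.49% (0.725 to 9.86) of old macrophages. Old macrophages (9.28 CPM, 3.01 to 21.7, from 5 UMIs) and old Schwann cells (15.4 CPM, 5.65 to 33.5, from 6 UMIs) lay lowest and did not differ beyond their intervals. Its spread over the gates was therefore unlike that of Lpl, which was low in endothelial cells.

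Angptl2 had its highest levels in Schwann cells, 238 CPM (199 to 283) young and 128 CPM (95.3 to 169) old. Old mesenchymal cells followed with 60.03 CPM (58.5 to 61.6), then adipocytes with 38.9 CPM (24.1 to 59.5). Macrophages (11.1 CPM) and endothelial cells (7.48 CPM) were lowest in the old library. After thinning, 34.8% of young and 21.1% of old Schwann cells held it, against 1.16% of old macrophages and 1.24% of old endothelial cells (median depths 5845 and 10696 UMIs).

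Of the fatty acid binding proteins, Fabp4, the adipocyte form, reached 26241 CPM (25811 to 26677) in old adipocytes, 216-fold the old mesenchymal level of 122 CPM. Endothelial cells followed, with 939 CPM in the 29 young and 325 CPM (314 to 335) in the 977 old cells. The distribution within old endothelium was uneven, at 3514 CPM (2795 to 4362) in the 4 capillary-marked cells against 219 CPM (209 to 229) in the vein-marked cells. The high level was not particular to capillary markers. The 2 cells that passed the lymphatic class only had 3844 CPM (3195 to 4587). The 71 cells that passed 2 or more classes had 1030 CPM (966 to 1096). Old Schwann cells were lowest at 41.1 CPM. Thinned shares of mesenchymal cells with Fabp4 were 21.7% young and 18.8% old, above 4.55% and 7.89% in Schwann cells.

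Fabp5, the form of epithelia and macrophages, was highest in old macrophages at 3689 CPM (3529 to 3855), 25.3-fold the old mesenchymal level of 146 CPM. Old adipocytes (1421 CPM) came next, followed by Schwann cells (367 CPM, 309 to 433). Mesothelial (205 CPM, 173 to 241) and endothelial cells (184 CPM, 176 to 192) overlapped. This gene was detected in every gate, with 5 or more UMIs in 77.01% of old macrophages and 7.74% of old mesenchymal cells.

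Cd36, the fatty acid and scavenger receptor, separated 2 gates from the rest. Old macrophages had 804 CPM (730 to 883) and old adipocytes 560 CPM (498 to 626). Old endothelial cells stood at 6.40 CPM (4.997 to 8.07) and old mesenchymal cells at 2.11 CPM (1.82 to 2.43). The capillary-marked cells carried 6 of the 71 endothelial UMIs (257 CPM, 94.4 to 560). The Schwann gate held 0 young and 1 old UMI (2.57 CPM, 0.0650 to 14.3), too few to set a background for the mesenchymal level.

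Plin2, the droplet coat protein found outside adipocytes as well, was highest in old macrophages (201 CPM, 165 to 242) and adipocytes (122 CPM, 94.6 to 156), ahead of Schwann cells (89.9 CPM, 62.6 to 125). Adipocytes and Schwann cells overlapped. Endothelial cells (28.7 CPM), mesenchymal cells (27.5 CPM) and mesothelial cells (26.5 CPM) of the old library had overlapping intervals.

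Apoe was highest in old adipocytes (1940 CPM, 1824 to 2061), then in macrophages (641 CPM, 575 to 712), endothelial cells (379 CPM, 368 to 391) and mesothelial cells (282 CPM, 244 to 323), an order in which no neighbouring intervals overlap. Old mesenchymal cells had 52.8 CPM and Schwann cells 35.95 CPM (19.7 to 60.3). The 29 young endothelial cells had 372 CPM (303 to 451). Thinned shares in mesenchymal cells were 4.003% young and 9.69% old, and in Schwann cells 4.55% (0.947 to 12.7) and 11.8% (5.56 to 21.3), so the share alone does not set the mesenchymal cells above the Schwann gate. The part of free RNA in it was not tested. The level was uneven within the mesenchymal gate, as given by marker class further on. With 5 or more UMIs there were 20 young (0.210%) and 162 old (1.79%) mesenchymal cells, and 0 of 66 young and 0 of 77 old Schwann cells.

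Counted against all genes, members were often higher in the other gates of the old library. A gene was called when 1.5-fold or more apart, among genes with at least 20 UMIs over both sums. In adipocytes 7 of 8 measured members were higher than in mesenchymal cells (background 21.5% of 13947 genes) and 1, Angptl2, was lower (24.1%). In macrophages 5 of 8 were higher (18.5%), namely Cd36, Fabp5, Apoe, Plin2 and Fabp4, and 3 were lower (32.9%), namely Lpl, Angptl4 and Angptl2. In endothelial cells Apoe, Cd36, Fabp4 and Angptl4 were higher (16.5%), and Lpl and Angptl2 were lower (30.6%). Gpihbp1 was higher too, but with 33 endothelial and 3 mesenchymal UMIs it passed the minimum only through the gate where it is high. In Schwann cells 3 of 8 were higher (23.8%), namely Plin2, Fabp5 and Angptl2, and Lpl, Angptl4 and Fabp4 were lower (16.5%). Those 3 in Schwann cells, and Angptl4 and Angptl2 in macrophages, had under 20 UMIs in the gate itself and passed the minimum through the mesenchymal sum.

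The second comparison, the one the study's groups define, set old against young mesenchymal cells. Angptl2 and Apoe stood 3.17-fold and 2.94-fold higher in the old library and Fabp5 at 0.482 times its young level, whereas Lpl and Fabp4 differed little. The Apoe values carry the limit given above, that shares of mesenchymal cells with a UMI did not exceed those of the Schwann gate. Of the 9 genes 8 were measured (Gpihbp1 had 1 young and 3 old UMIs). In the old library Angptl2 and Apoe were higher by 1.5-fold or more (background 19.9% of 14960 genes) and Fabp5 was lower (background 12.3%). Cd36 was higher too, but with 15 young and 194 old UMIs it passed the minimum only through the library where it is high. The median log2(old/young) was 0.01 over the 8 genes, Cd36 included, and 0.14 over all genes. The plot of log2 ratios shows this gate beside the Schwann and mesothelial gates, which also held at least 50 cells of each age.

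**Figure D2:**
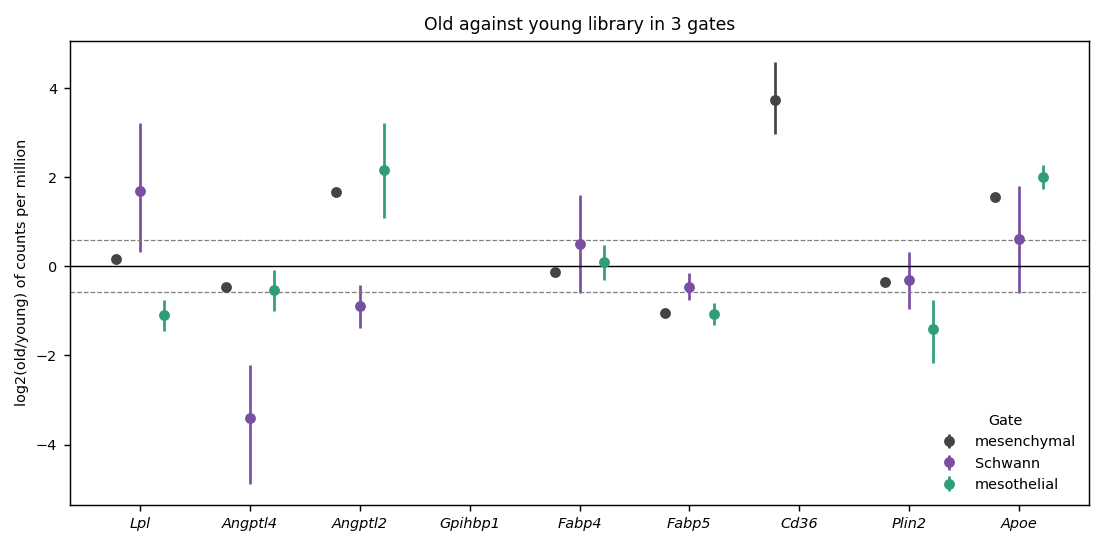
The log2 ratio of the old to the young level (y axis) for each gene in the mesenchymal, Schwann and mesothelial gates, with exact conditional Poisson 95% intervals, and dashed lines at 1.5-fold. Angptl2 lies at 1.67 in mesenchymal and at -0.89 in Schwann cells, and genes with under 20 UMIs over both libraries have no point.

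For the lipase, 22925 young and 25035 old UMIs gave 244 and 272 CPM, a log2 ratio of 0.16 (0.13 to 0.19). This is near the median of all genes, and with the marker minimum of the gates doubled it was -0.01, so no direction is given. The inhibitor Angptl4 stood at 79.3 CPM (77.5 to 81.1) young and 57.3 CPM (55.7 to 58.9) old, a log2 ratio of -0.47 (-0.52 to -0.42), short of 1.5-fold. Cells with 5 or more Angptl4 UMIs held 5.96% of its young and 11.6% of its old UMIs, so more of the old transcript lay in rich cells.

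Angptl2 stood at 18.9 CPM (18.1 to 19.8) in young and 60.03 CPM (58.5 to 61.6) in old mesenchymal cells, 3.17-fold higher (log2 1.67, 1.59 to 1.74). Its thinned share of cells was 3.70% (3.33 to 4.11) and 11.3% (10.6 to 12.0), and without thinning 15.2% and 40.3%. The difference was found across the gate and not in a few cells, since 46 old cells with 5 or more UMIs held 4.78% of the transcript.

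Fabp5 stood at 303 CPM (299 to 306) young and 146 CPM (143 to 148) old, 2.08-fold higher in the young library (log2 -1.05, -1.08 to -1.02). Thinned shares were 37.8% and 21.4% (75.5% and 55.2% unthinned), and 21.2% of young but 7.74% of old cells had 5 or more UMIs. Its neighbour Fabp4 stood at 133 and 122 CPM, a log2 ratio of -0.13 (-0.17 to -0.10). Over 9 alternative settings Fabp4 ran from -0.31 to 0.01, so it too has no direction. Plin2 stood at 34.9 and 27.5 CPM, log2 -0.34 (-0.42 to -0.27), below 1.5-fold.

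Apoe stood at 18.0 CPM (17.1 to 18.9) young and 52.8 CPM (51.4 to 54.3) old, 2.94-fold higher (log2 1.55, 1.47 to 1.64). The cells with 5 or more UMIs carried 8.45% of the young and 27.3% of the old transcript, and the highest single cell had 19 and 47 UMIs. Cd36 gave 15 young and 194 old UMIs, 0.159 and 2.11 CPM, a log2 ratio of 3.73 (2.97 to 4.59). Marker transcripts of several other cell types were also higher in the old mesenchymal cells, and their part in these values was not tested. Summed over old against young mesenchymal cells, endothelial markers stood at 36.4 against 14.5 CPM (10 of 10 detected in both), macrophage markers at 27.5 against 12.5 CPM (13 and 10 of 13, with Adgre1, C1qa and Ptprc at 0 in the young) and adipocyte markers at 6.60 against 2.48 CPM (8 of 9, Lep at 0 in both). Pericyte markers stood at 72.0 against 27.0 CPM, whereas Schwann markers (5.89 against 6.16 CPM) and mesothelial markers (19.3 against 23.0 CPM) were not higher. In the 5558 young and 3678 old mesenchymal cells without 1 UMI of any other gate's markers, a setting chosen after seeing the data, Apoe had a log2 ratio of 1.72 and Cd36 of 3.66. In those cells Angptl2 had 1.63, Fabp5 -0.98 and Lpl 0.43.

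Within the mesenchymal gate the genes differed in where they lay. Cells were sorted by markers of smooth muscle (such as Myh11 and Cnn1) and of proliferation (such as Mki67), and 6155 young and 6668 old cells carried neither, nor pericyte markers. Lpl and Apoe were highest in the cells with none of these markers, and Fabp5 in the contractile or dividing ones. The plot by marker class shows the 6 genes of highest count.

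**Figure D3:**
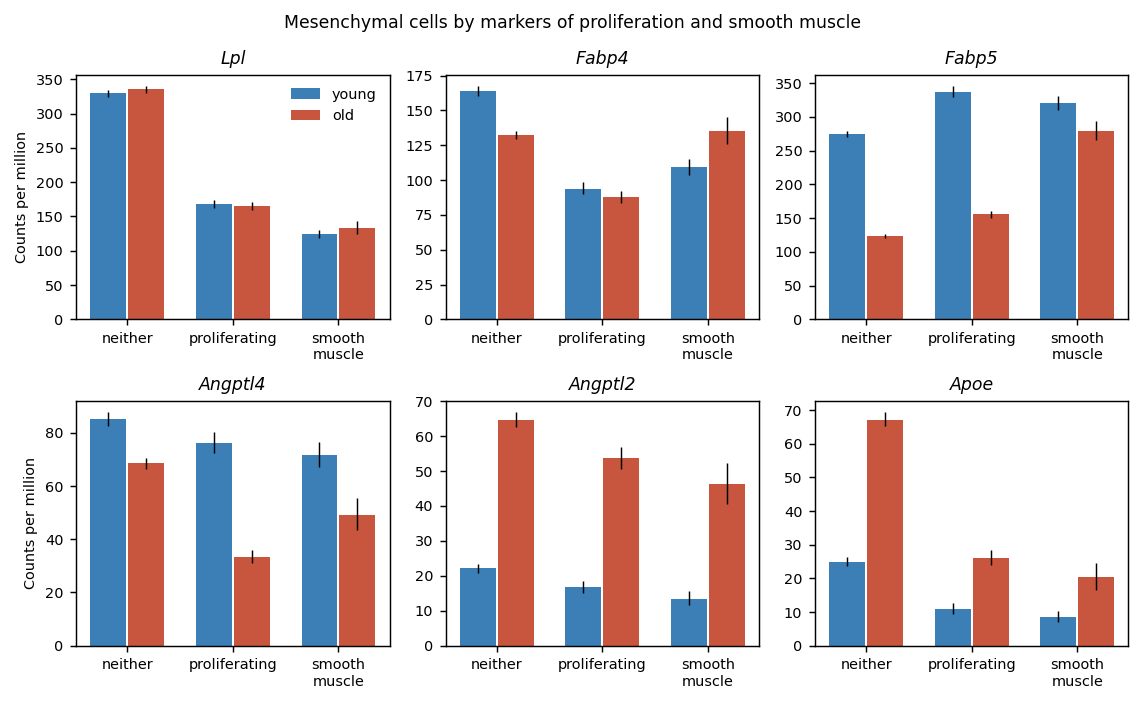
Level in CPM (y axis) of 6 genes in mesenchymal cells, young and old, with exact Poisson 95% intervals. Cells (x axis) were below the smooth muscle, proliferation and pericyte marker limits, in the proliferating class only, or in the smooth muscle class only. Lpl is 330 and 335 CPM in the first class against 124 and 134 CPM in the smooth muscle class, and Angptl2 and Apoe are higher in the old library in all 3 classes.

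Lpl stood at 330 CPM (325 to 335) young and 335 CPM (331 to 340) old in cells below the marker limits. It stood at 168 and 165 CPM in the proliferating class and at 124 and 134 CPM in the smooth muscle class. Old and young intervals of Lpl overlapped in each of these 3 classes. The share of cells in the smooth muscle class differed between the libraries, with 1096 young and 386 old cells, and summed smooth muscle markers of the whole gate stood at 314 and 147 CPM. The part of this in the whole-gate values was not tested.

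Fabp5 in the smooth muscle class stood at 320 CPM (311 to 330) young and 279 CPM (265 to 293) old, a log2 ratio of -0.20. In cells below the marker limits it was 274 and 124 CPM, log2 -1.15 (-1.19 to -1.11), and in the proliferating class 337 and 156 CPM, log2 -1.11. The lower old level of Fabp5 was therefore small in the smooth muscle class and past 1.5-fold in the other classes plotted. Cells in 2 or more classes, 619 young and 279 old, had 366 and 220 CPM and are not plotted. In the pericyte class, with 9 young cells, the log2 ratio was 0.09 (-0.64 to 0.92). Angptl4 was lower by more than 1.5-fold in the proliferating class, at 76.2 and 33.4 CPM (log2 -1.19, -1.32 to -1.06). In cells below the marker limits it stood at 85.1 and 68.5 CPM (log2 -0.31).

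Angptl2 was higher in the old library in all 3 classes, with log2 ratios of 1.55 below the marker limits, 1.68 in the proliferating and 1.78 in the smooth muscle class. Apoe likewise had 1.43, 1.25 and 1.24. For Apoe the level itself was lower in the smooth muscle class, at 20.3 CPM (16.7 to 24.5) in old cells. Old cells below the marker limits had 67.2 CPM (65.1 to 69.3). In the young library the levels were 8.61 CPM (7.09 to 10.3) and 25.0 CPM (23.7 to 26.4). The 114 old cells in the pericyte class had 223 CPM of Fabp4 and 216 CPM of Lpl, and only 9 young cells fell in that class.

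From cell to cell, Lpl was found more often together with several of the other genes. After thinning, young mesenchymal cells with a Fabp4 UMI had Lpl in 39.8% (37.7 to 42.0) of cases and those without in 28.2% (27.2 to 29.3). In the old library the shares were 46.9% (44.5 to 49.3) and 34.2% (33.1 to 35.3). Cells with Angptl4 had Lpl in 33.8% against 30.2% in the young and in 47.5% (44.5 to 50.6) against 35.1% (34.1 to 36.2) in the old library. The gap between cells with and without the inhibitor was wider in the old library than in the young one, and this difference was not tested. With Angptl2 the gap was seen in the young library, where Lpl was found in 42.5% (37.3 to 47.9) of cells with it and 30.3% (29.3 to 31.2) without. In the old library the intervals overlapped, at 37.7% (34.7 to 40.8) and 36.4% (35.4 to 37.5). Cells with Apoe had Lpl in 44.4% against 30.2% and in 48.7% against 35.3%. Fabp5 ran the other way: Lpl was found in 28.4% of young cells with it and 32.1% without, and in 33.3% and 37.5% in the old library.

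Cells holding a transcript of Pparg, the adipogenic nuclear receptor, were 377 young and 877 old mesenchymal cells. Lpl in them stood at 406 CPM (387 to 425) young and 389 CPM (377 to 402) old, against 236 and 258 CPM in cells without. Fabp4 was 194 against 130 CPM young and 199 against 113 CPM old. Angptl2 (59.2 against 60.1 CPM) and Angptl4 (59.9 against 57.0 CPM) did not differ between such cells in the old library beyond their intervals. Cells with a Pparg UMI were somewhat deeper, with medians of 10268 against 8890 UMIs young and 9983 against 9097 old.

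The genes whose pattern over mesenchymal cells was most like that of Lpl were Hp, which encodes haptoglobin (Pearson r of 0.37 young and 0.43 old), Ptx3, a soluble pattern recognition protein (0.46 and 0.32), and Igfbp4, a binding protein of insulin-like growth factors (0.36 and 0.38). These were taken within each library, over 9532 young and 9061 old cells that were not thinned to 1 depth. The part of depth in these values was not tested. For Fabp4 they were Hp (0.27 and 0.34) and Lpl itself (0.22 and 0.23). For Fabp5 they were the cytoskeletal genes Myl6 (0.27 and 0.29), Acta2 (0.23 and 0.33) and Myl12a (0.25 and 0.29). No gene reached 0.2 in both libraries for the other members. Over the 9 combinations of library and gate with at least 50 cells, log2(CPM + 10) of Lpl was most like that of Tcf7l2 (r = 0.99), Dyrk1a and Gm5617. The nearest to Angptl4 were Mrpl37, Apoo and Mrpl35, and the nearest to Angptl2 were Sipa1l1, Dctn2 and Pi4k2b. Fabp4 had Eral1, Ddt and Ephx2, and Fabp5 had Tmem243, Ctsb and Man2b1. Cd36 had AW112010, Cbr2 and Mtm1, Plin2 had Pag1, Atp6v1b2 and Lamtor4, and Apoe had Usp7, H2-K1 and Arid3b. With 9 points taken from 2 libraries, and all genes of at least 100 UMIs searched, these names are a description only.

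In Schwann-gated cells the old and young libraries differed in another way. Angptl4 gave 89 UMIs in 66 young and 6 in 77 old cells, 162 CPM (130 to 199) and 15.4 CPM (5.65 to 33.5), 10.5-fold higher in the young library (log2 -3.39, -4.88 to -2.21). Its thinned share was 21.2% (12.1 to 33.0) in young and 2.63% (0.320 to 9.18) in old Schwann cells. Angptl2 was lower in old Schwann cells as well, at 238 and 128 CPM (log2 -0.89, -1.39 to -0.41). Lpl was higher, from 7 and 16 UMIs (12.7 and 41.1 CPM, log2 1.69, 0.33 to 3.21), and so was Apoe at 1.52-fold, but the Apoe interval includes no difference (log2 0.61, -0.59 to 1.81). Of 7 measured members 2 were thus higher by 1.5-fold (18.9% of 5278 genes) and 2 lower (13.1%), of which Angptl4 passed the minimum only through the young library. Fabp5 (504 and 367 CPM), Fabp4 (29.1 and 41.1 CPM) and Plin2 (111 and 89.9 CPM) stayed within 1.5-fold. The depth of these cells differed, with medians of 7640.5 young and 4902 old UMIs, and so did the sum of Schwann markers, 1123 and 1749 CPM. The part of either in these values was not tested.

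Mesothelial cells, 356 young and 71 old, had Lpl at 224 CPM (210 to 239) and 105 CPM (82.3 to 131), log2 -1.10 (-1.46 to -0.76). The lipase thus stood lower in old mesothelial cells, unlike in the mesenchymal gate. Fabp5 (429 and 205 CPM, log2 -1.06) and Plin2 (70.7 and 26.5 CPM, log2 -1.42) were lower too. Apoe stood at 70.2 CPM young and 282 CPM old, 4.01-fold higher (log2 2.005, 1.74 to 2.27). Angptl2, from 19 and 15 UMIs, stood at 4.65 and 20.9 CPM (log2 2.17, 1.09 to 3.22). Of 7 measured members 2 were higher (15.2% of 9686 genes) and 3 lower (16.6%), of which Plin2, with 289 young and 19 old UMIs, passed the minimum only through the young library. These cells also carried mesenchymal markers at 4540 and 3951 CPM, whose part in these values was not tested.

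The other genes of lipid handling in mesenchymal cells were read from 8 lists, of which each count below is of members measured with at least 20 UMIs over both libraries and at least 1.5-fold apart, against 19.9% of all genes higher and 12.3% lower. The lists were chosen with earlier results of these data known. The plot of the lists shows each gene.

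**Figure D4:**
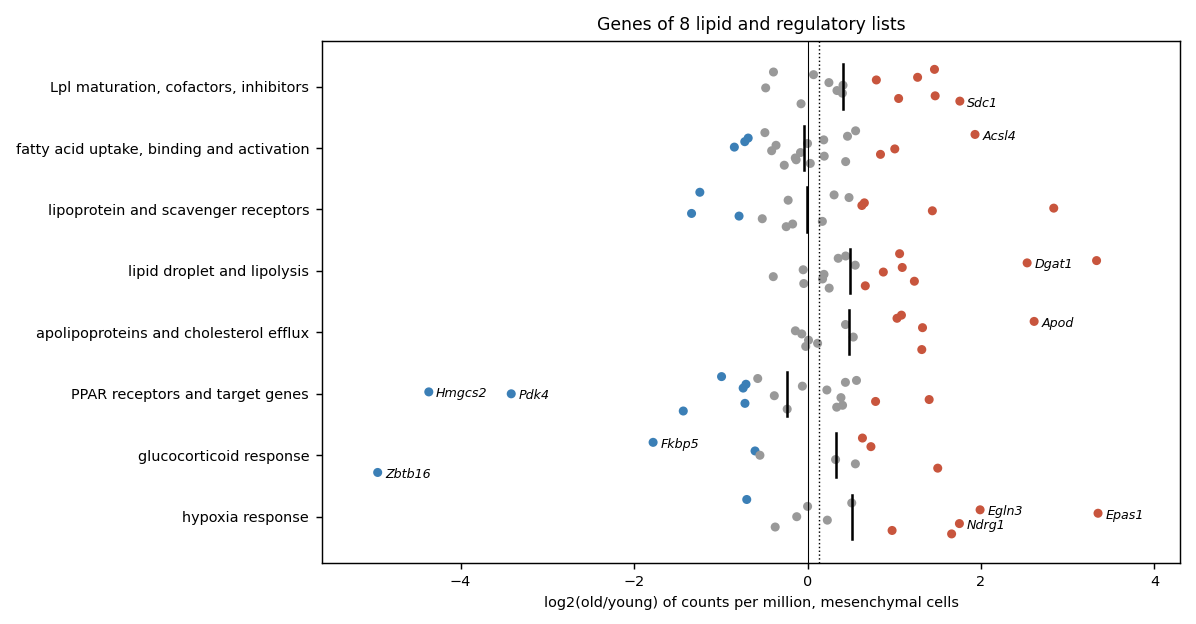
The log2 ratio of the old to the young level in mesenchymal cells (x axis) for each measured gene of 8 lists (rows), with genes at least 1.5-fold higher in red, at least 1.5-fold lower in blue and others in grey. Black bars are list medians, the dotted line is the median of all genes at 0.14, and the PPAR list has 7 blue genes against 2 red.

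Of the listed genes for lipase maturation, cofactors and inhibitors 6 of 14 were higher and 0 lower, and their median log2 ratio was 0.41. The list took in further angiopoietin-like genes, Angptl1 among them, and other lipases, so it does not count known lipase regulators only. Sdc1, a heparan sulfate proteoglycan that binds lipoproteins, stood at 60.6 and 205 CPM (3.38-fold), Pcsk5, a proprotein convertase, at 4.37 and 12.1 CPM, and Angptl1 at 5.74 and 15.8 CPM. Angptl8, which works with other angiopoietin-like proteins on the lipase, stood at 1.75 and 4.23 CPM. For fatty acid uptake, binding and activation 3 of 20 were higher and 3 lower, and the median was -0.04. Acsl4, which loads long-chain fatty acids onto coenzyme A, stood at 47.7 and 182 CPM (3.81-fold), Fabp7 at 2.997 and 6.02 CPM, and Meox2, an endothelial fatty acid transport regulator, at 2.10 and 3.77 CPM. Fabp3, the heart form, stood lower at 3.90 and 2.17 CPM.

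Receptors of lipoproteins were 4 of 14 higher and 3 lower, and the median was -0.00. Scarb1, which takes cholesterol from high density lipoprotein, was lower at 11.4 and 6.58 CPM. Olr1, a receptor of oxidised lipoprotein, was higher at 7.41 and 20.1 CPM. Lipid droplet and lipolysis genes were 7 of 16 higher and 0 lower, and the median was 0.50. Dgat1, the last enzyme of triglyceride synthesis, stood at 8.07 and 46.7 CPM (5.79-fold), Abhd5, which activates the main triglyceride lipase, at 23.6 and 49.3 CPM, Fitm2 at 6.35 and 13.5 CPM, and the adipocyte droplet protein Plin1 at 0.499 and 1.17 CPM. Of that list 3 genes were also markers of the adipocyte gate, whose summed level in these cells was higher in the old library as given above. Apolipoprotein and efflux genes were 5 of 12 higher and 0 lower, and the median was 0.48. Apod stood at 0.680 and 4.16 CPM (6.12-fold), Clu at 13.0 and 32.6 CPM, Pltp at 2.65 and 6.60 CPM, and the cholesterol exporter Abca1 at 15.2 and 32.2 CPM.

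PPAR receptors and their target genes were 2 of 19 higher and 7 lower, and the median was -0.23. Pparg itself stood at 4.21 and 11.1 CPM (2.64-fold), while the targets Pdk4, a brake on pyruvate oxidation (14.0 and 1.31 CPM), and Ucp2 (74.6 and 27.6 CPM) were lower. Angptl4, which the same receptors induce, was lower by less than 1.5-fold as given above. Of glucocorticoid response genes 3 of 9 were higher and 3 lower, and the median was 0.32. Zbtb16 (2.70 and 0.0869 CPM) and Fkbp5 (26.1 and 7.61 CPM) stood lower, and Tsc22d3 (13.3 and 37.6 CPM) and the steroid-activating enzyme Hsd11b1 (5.03 and 8.34 CPM) higher. Of hypoxia response genes 5 of 11 were higher and 1 lower, and the median was 0.51. Epas1, the hypoxia-inducible factor of endothelium and fat, stood at 7.03 and 71.7 CPM (10.2-fold), Vegfa at 58.2 and 184 CPM, Egln3 at 6.11 and 24.3 CPM, and Ndrg1 at 6.48 and 21.8 CPM.

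In the adipocyte, Schwann, endothelial and macrophage gates of the old library the most abundant genes of these lists were in part the same. Dbi, an acyl-CoA binding protein, led the fatty acid list in each. Its level was 5037 CPM in adipocytes, 1988 CPM in Schwann cells, 529 CPM in endothelial cells and 396 CPM in macrophages. Ldha and Pgk1 led the hypoxia list in macrophages (1125 and 999 CPM) and in endothelial cells (700 and 860 CPM). Adipocytes also had Acsl1 at 1058 CPM and Pnpla2, the main triglyceride lipase of droplets, at 871 CPM. Their level of Apoc1, a lipoprotein lipase inhibitor, was 843 CPM (767 to 924), against 4.05 CPM in mesenchymal cells. Macrophages also had Hilpda, an inhibitor of droplet lipolysis, at 642 CPM, Abca1 at 570.04 CPM and Msr1, a scavenger receptor, at 323 CPM. Endothelial cells also had Cav1, the main protein of caveolae, at 356 CPM against 144 CPM in mesenchymal cells, and Clu at 185 CPM.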

How the data were processed

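The unnormalized UMI counts per gene and barcode were deposited by the authors; the file headers name Cell Ranger 3.0.1. The genome was mm10, per the submitters' processing notes, and the chemistry 10x Chromium 3', version 2, per the labels' protocols. Kept cells had at least 500 genes and no more than 10% mitochondrial UMIs. The automatic threshold of Scrublet (scanpy 1.11.5) called 0 doublets in both libraries, so the 1302 young and 1504 old cells of highest score (0.8% per 1000 cells) were removed.

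Endothelial, adipocyte, Schwann, macrophage and mesothelial gates needed 5 or more UMIs from at least 3 markers. The mesenchymal gate needed 20 marker UMIs per 10000 from at least 3 markers and fewer than 3 UMIs of each other list, and Schwann and mesothelial gates took precedence over it. Classes within it needed 5 UMIs from 2 markers (endothelial classes 3 UMIs). These limits were set after seeing the data, and the 9 genes, lists and markers were chosen with earlier results of these data known. Sums carry exact Poisson, ratios conditional Poisson and shares Clopper-Pearson intervals, and the ratio step was tested on simulated data. Thinned shares leave out cells under 2000 UMIs (9394 young and 8977 old mesenchymal cells stayed). A sum of 0 was set to 3 UMIs in ratios. Named genes were the 9 members, up to 4 per list with the largest ratio and at least 100 UMIs, up to 2 per list of highest level in other old gates, and the 3 most similar genes per member; some genes that count in the lists are not reported here by name. Alternatives changed the doublet step, cell filter, gate minimum, mixed barcodes, scaling, averaging and the cells kept.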

Additional observations from a re-analysis of the deposited data

Results flagged for a closer look

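In 3 cases the old library stood apart from the young one in opposite directions in different gates. Each such difference rests on 1 library per age and was not tested. For Lpl, the log2 ratio of old to young was 1.69 in Schwann and -1.10 in mesothelial cells, 2.79 apart, with 7 and 16 UMIs behind the Schwann value. For Angptl2, it was 1.67 in mesenchymal and -0.89 in Schwann cells, 2.56 apart. Angptl2 in mesothelial cells (2.17, from 19 and 15 UMIs) lay 3.06 above its Schwann value. Schwann-gated cells were shallower in the old library (median 4902 against 7640.5 UMIs) and carried mesenchymal markers in both libraries. The part of either in the opposite directions was not tested.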

How the results depend on the processing

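Under 9 alternative settings the mesenchymal log2 ratios of the 8 measured genes gave 72 values, of which 38 lay within the counting interval of the reported value and 34 outside it. Angptl2 ran from 1.55 to 1.71, Apoe from 1.43 to 1.72, Cd36 from 3.09 to 3.72, Fabp5 from -1.17 to -0.98, Angptl4 from -0.59 to -0.29 and Plin2 from -0.46 to -0.25. Lpl (-0.01 to 0.43) and Fabp4 (-0.31 to 0.01) reached both sides of 0. With mitochondrial and ribosomal protein genes left out of the total, 2 genes and not 1 were at least 1.5-fold lower in old mesenchymal cells, as Angptl4 came to -0.59. Size factors moved the median of all genes from 0.14 to 0.02, so ratios near 0 depend on the scaling. The counts of members higher in the other old gates moved by at most 1. Shares of cells scale with depth: thinned to 1000 UMIs, Lpl was found in 19.8% of young and 22.9% of old mesenchymal cells. Without thinning, Angptl4 was found in 48.9% and 35.5%, Fabp4 in 52.5% and 49.4%, and Apoe in 12.3% and 28.9%. No paired analysis was possible because the labels give 1 library per age and no pairing. No library could be left out for the same reason. Depth limits Gpihbp1 outside endothelium, Cd36 in mesenchymal cells and all values of the young endothelial, adipocyte and macrophage gates.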
